A study of Mus musculus with 12 samples.

Results

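Myocd, Srf and 7 contractile genes of smooth muscle (Acta2, Myh11, Tagln, Cnn1, Smtn, Lmod1 and Mylk) were followed in the lungs and hearts of Adam19 WT and Adam19 KO mice, to ask whether a lower Myocd in KO lungs came with lower smooth muscle genes. They are 9 of the 55679 genes in the deposited table, found by symbol, and 43 of its 147907 transcripts belong to them. The set was chosen by the lower value of Myocd in KO than in WT lungs in these same libraries, and the other 8 genes were added as known partners or targets. The lung values that compare the genotypes are therefore given as a description with no p, while the heart values and the comparisons between tissues were tested. RNA came from the whole lung and the whole heart, frozen on removal, of 6 male mice of the 129S6/SvEvTac strain aged 9 to 13 weeks. WT mice had both copies of Adam19, the gene of a membrane protease. KO mice were homozygous for an allele in which a tdTomato reporter construct took the place of exons 6 and 7 of Adam19 in every cell. No mouse received any treatment that the labels name. Each tissue of each mouse gave 1 library, so that each of the 4 groups (lung WT, lung KO, heart WT and heart KO) held 3 libraries, and replicates with the same number and genotype are the lung and heart of 1 mouse.

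Myocd encodes myocardin, a coactivator that has no DNA contact of its own and acts through serum response factor, the product of Srf. Serum response factor binds a short element called the CArG box, and the contractile genes of smooth muscle are its classical targets. Acta2 (smooth muscle alpha-actin) and Myh11 (smooth muscle myosin heavy chain) form the filaments, and Mylk encodes the kinase that switches myosin on by phosphorylating its light chain. Tagln (transgelin), Cnn1 (calponin) and Smtn (smoothelin) bind actin, and Lmod1 (leiomodin) nucleates actin filaments. Myocardin is also strongly made in heart muscle cells, and Acta2, Smtn and Srf are not limited to smooth muscle, so in whole organs these genes report on vessel walls, airway walls and heart muscle together.

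Of the 9 members, Srf and Tagln had a CArG box within the window from 250 bases before to 50 bases after the start of their most counted transcript, searched on both strands, which the motif reads alike. Among 14897 protein-coding genes tested in lung or heart, 1.36% had such a box in this window. The 250 bases before the start are shown here because these are the members whose window holds the element itself. They are given 5′ to 3′ on the gene's strand (GRCm39, minus strand for both) with the boxes in capitals, chr17:46867120-46867369 for Srf and chr9:45847405-45847654 for Tagln.

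Srf: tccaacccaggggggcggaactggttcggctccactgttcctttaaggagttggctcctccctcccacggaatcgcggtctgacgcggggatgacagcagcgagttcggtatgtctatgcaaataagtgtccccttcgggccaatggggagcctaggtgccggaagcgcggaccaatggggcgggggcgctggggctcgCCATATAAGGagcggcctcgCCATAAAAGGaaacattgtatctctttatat

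Tagln: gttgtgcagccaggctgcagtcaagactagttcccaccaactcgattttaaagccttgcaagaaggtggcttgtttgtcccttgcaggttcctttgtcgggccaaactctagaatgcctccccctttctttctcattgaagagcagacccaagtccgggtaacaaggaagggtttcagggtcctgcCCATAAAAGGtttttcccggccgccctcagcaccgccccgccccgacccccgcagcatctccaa

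The Srf window held CCATATAAGG with its first base 51 bases before the start and CCATAAAAGG 31 bases before it, and the Tagln window held CCATAAAAGG 64 bases before the start. A window without a match says only that these letters are not in it.

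The members lie on chromosomes 1 (Lmod1, 135252509 to 135295907), 9 (Cnn1, 22010512 to 22020926, and Tagln, 45840909 to 45847404), 16 (Myh11, 14012399 to 14109236, and Mylk, 34565580 to 34822790), 17 (Srf, 46857767 to 46867119) and 19 (Acta2, 34217737 to 34232990) of GRCm39. Myocd (65067387 to 65160828) and Smtn (3467520 to 3490612) lie on chromosome 11, as Adam19 (45946775 to 46038172) does. Cnn1 shares 961 bases with Elof1 on the opposite strand and Tagln shares 647 bases with the noncoding Gm48529 on the opposite strand, which libraries that keep the strand tell apart. The span of Myocd overlaps that of the noncoding Gm12295 on the same strand, which the strand does not tell apart. Gm12295 was at 2.99 to 9.07 over the libraries, and whether reads were shared between it and Myocd was not tested.

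The libraries held 17674788 to 35862932 estimated counts. Adam19 was at 9.12 to 9.41 in WT lungs and 3.21 to 4.44 in KO lungs, and at 9.17 to 10.27 in WT hearts and 6.01 to 6.67 in KO hearts, so that no library went against its label. All gene values are on the deposited log2 scale, on which a step of 1 is a doubling, and they carry a constant for each library between −0.63 and 0.80. Sftpc, a lung epithelium marker, was higher in every lung than in every heart, and all 12 heart muscle markers were called lower in lung than in heart in each genotype. In the lung, the 7SL gene Rn7s1 took 34.0% and 29.9% of the summed gene values of WT replicates 1 and 2 and 2.1% of WT replicate 3, and 3.22% to 20.3% in KO lungs.

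In the lung, Myocd had a lower deposited value in KO than in WT mice, and the contractile genes overlapped between the genotypes. The value of Myocd (ENSMUSG00000020542.19) was 7.06, 6.47 and 7.09 in WT lungs and 5.57, 6.39 and 5.54 in KO lungs. Every KO lung lay below every WT lung, with KO replicate 2 and WT replicate 2 close together. The mean was 6.88 ± 0.35 in WT lungs and 5.83 ± 0.48 in KO lungs (SD, n = 3 each), a difference of −1.04 (standard error 0.31). In bulk tissue, fewer cells that express a gene and less RNA per cell cannot be told apart. A difference in this direction with no overlap of the libraries was seen in 6.4% of the 16551 genes tested in the lung, and since the gene was picked for it, nothing is read from that share. The study's thresholds (an adjusted p under 0.05, a fold of 1.5 or more, and 6 or more for the larger group mean) were passed by 0.0665% of lung genes (11 genes), and nothing is read from them for the members here.

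The lower value of Myocd in KO lungs was not seen in the plain sum of its transcripts, nor in sums without its shortest transcript. Summed over its 6 annotated transcripts, Myocd had 57.2, 49.4 and 94.6 estimated counts in WT lungs and 82.3, 117 and 56.3 in KO lungs, before any scaling. On the scale of the gene table these sums were 6.12, 5.91 and 6.29 in WT and 6.16, 6.26 and 6.12 in KO lungs, which overlapped, with a difference of 0.074 in the other direction. The deposited value was above the sum by 0.94, 0.56 and 0.80 in the WT lungs and below it by 0.59 in KO replicates 1 and 3. A sum in which each transcript's counts were first divided by its length, a step many pipelines take when going from transcripts to genes, gave 7.21, 6.58 and 7.15 in WT and 5.44, 6.38 and 5.37 in KO lungs, a difference of −1.25. Over 20705 genes with several transcripts, these length-weighted sums lay closer to the deposited values than plain sums did, with a median absolute difference of 0.017 against 0.047. Without the shortest transcript, Myocd-205, the length-weighted difference was 0.18 and the plain sum differed by 0.18, both with KO above WT. Each of these sums other than the plain one over all transcripts was chosen after seeing the data.

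**Figure D1:**
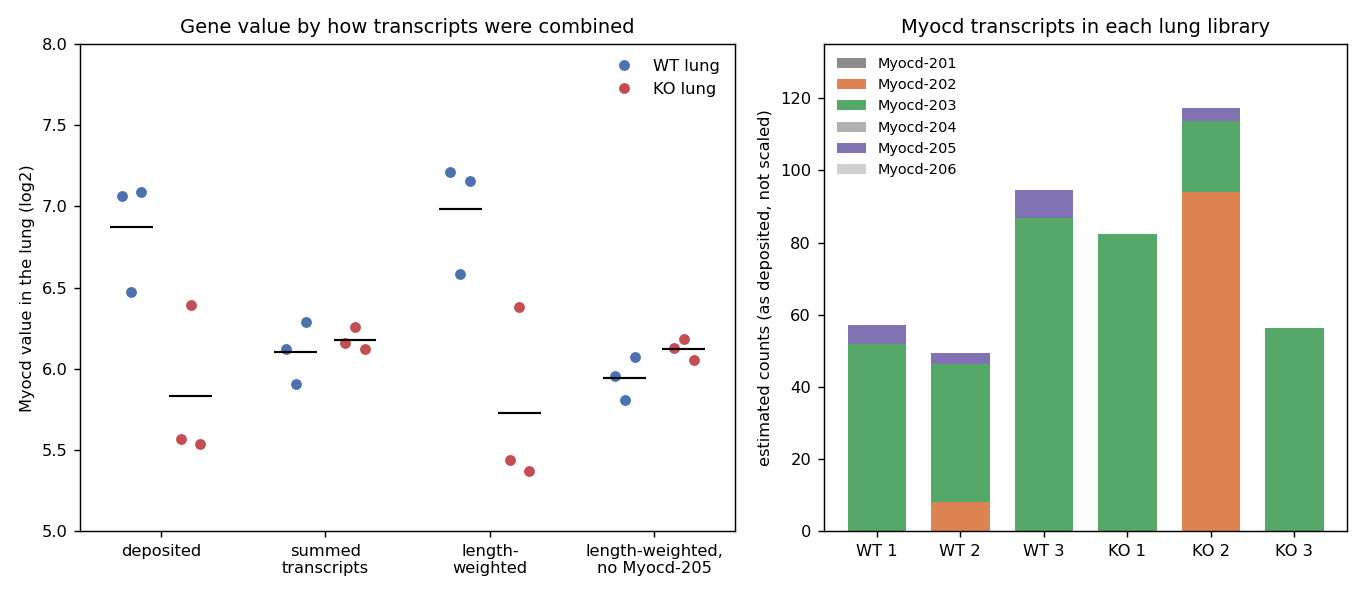
Left, the log2 value of Myocd in each lung library (points, mean as a bar) as deposited, as the plain sum of its transcripts, as a length-weighted sum and as a length-weighted sum without Myocd-205. Right, estimated counts of each Myocd transcript in each lung library as deposited, where Myocd-205 held 3.02 to 7.68 counts in WT lungs and 0, 3.61 and 0 in KO lungs and the genotypes lie apart on the left as deposited and in the length-weighted sum with Myocd-205.

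Myocd-205 (ENSMUST00000150823.2) is 377 bases long, has 4 exons and has no coding region in the annotation. It had 5.43, 3.02 and 7.68 estimated counts in WT lungs and 0, 3.61 and 0 in KO lungs. These are counts at or near the limit of detection, since a count of 0 leaves room for up to 3. In hearts, where Myocd is deeper, the same transcript had 62.8, 26.3 and 25.0 counts in WT and 66.5, 52.1 and 53.0 in KO mice, or 5.90, 5.56 and 5.50 against 5.97, 5.66 and 5.65 on the scale of the gene table, and the genotypes overlapped. It shares its exons 2 and 4 with exons 2 and 3 of the long transcripts and differs by its exon 3, 44 bases at chr11:65119644-65119687 on the minus strand of GRCm39, which is shown here as the exon that the long forms lack. Read on from the start codon of the long form, the exon holds a stop codon, in capitals, after 41 codons.

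Myocd-205 exon 3: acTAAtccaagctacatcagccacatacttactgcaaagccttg

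In smooth muscle, myocardin transcripts are known to include an additional exon near their 5′ end that closes the first reading frame, so that a shorter protein starts downstream, whereas heart muscle makes the longer protein. Whether reads from longer transcripts with such an exon were counted as Myocd-205 was not tested. The annotated coding form Myocd-201 (2585 bases, 855 codons) had 0 counts in every lung and heart library. Most Myocd counts outside Myocd-205 fell on Myocd-203 (5140 bases, 983 codons), with 51.8, 38.2 and 86.9 counts in WT lungs and 82.3, 19.7 and 56.3 in KO lungs. The transcript Myocd-202 (4996 bases, 935 codons) took 94.1 of the 117 counts of KO replicate 2 and was at 0, 8.22 and 0 in WT lungs and at 0 in the other KO lungs. It lacks exon 11 of Myocd-203, 144 bases or 48 codons at chr11:65075314-65075457 on the minus strand, printed here as the only sequence that tells these long forms apart.

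Myocd-203 exon 11: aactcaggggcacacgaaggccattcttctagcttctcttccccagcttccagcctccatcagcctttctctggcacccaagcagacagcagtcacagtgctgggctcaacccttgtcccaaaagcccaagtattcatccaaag

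In hearts, Myocd-203 took 94.8% ± 2.6 of the counts in WT and 94.9% ± 0.96 in KO mice (SD, n = 3 each), and Myocd-202 was at 0 in all 3 WT hearts and at 15.7, 0 and 26.5 counts in KO hearts.

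Srf was at 8.82, 9.23 and 7.86 in WT lungs and 9.13, 8.74 and 8.94 in KO lungs, a difference of 0.30 (standard error 0.32). The WT lungs spanned the KO lungs. The other genes of its partners were given by a list of 14 SRF cofactors and antagonists. In the lung, 3 of the 14 were higher in every KO than in every WT library (Prrx1, Csrp2 and Mrtfb, with differences of 0.45, 0.29 and 0.27) and none was lower, beside 6.41% of all genes higher without overlap. The largest difference in the list was that of Gata6, at −0.48, with overlapping libraries, and Elk4 differed by 0.29.

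Among the contractile members in the lung, 6 of 7 had a higher mean in KO and each overlapped between the genotypes. Myh11 was at 11.50, 11.71 and 11.03 in WT lungs and 11.56, 11.92 and 11.92 in KO lungs, a difference of 0.39 (standard error 0.20). Acta2 was at 11.22, 11.30 and 11.43 in WT and 11.50, 12.04 and 11.12 in KO lungs, a difference of 0.23 (standard error 0.23). The KO lungs were more spread than the WT lungs for Acta2, with the highest value in replicate 2 and the lowest in replicate 3. Tagln, the only contractile member with a lower mean deposited value in KO, was at 11.05, 11.20 and 11.75 in WT and 11.15, 11.55 and 10.996 in KO lungs, a difference of −0.10 (standard error 0.22). Its transcript Tagln-202, of 369 bases, had 6.54, 6.61 and 361 estimated counts in WT replicates 1, 2 and 3. In WT replicate 3 the deposited value was above the plain sum of transcripts by 0.61. With plain sums Tagln differed by 0.13, with KO above WT. Lmod1 differed by 0.44, Mylk by 0.18, Smtn by 0.17 and Cnn1 by 0.01, with standard errors of 0.17 to 0.41. The median difference of the 8 members other than Myocd was 0.21, against 0.01 over all lung genes. In all, 2 of the 9 members were lower in KO, but Myocd was chosen for it. Among the 8 other members 1 was lower, and 48.4% of all genes were.

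WT replicate 3 stood apart among the lungs, with the lowest WT deposited value of Srf, Myh11, Smtn, Lmod1 and Mylk and the highest of Acta2 and Tagln. Lmod1 was 6.07 in it and 7.31 to 7.88 in the other 5 lungs. In plain sums of transcripts, Tagln was at 11.14, 11.24 and 11.14 in WT replicates 1, 2 and 3. Without WT replicate 3, 5 of 9 members were lower in KO and the median difference of the 8 members other than Myocd was 0.03. Without KO replicate 3, 1 of 9 was lower, and without KO replicate 2, which had the highest KO values of Acta2, Tagln, Cnn1 and Lmod1, 4 of 9 were. Myocd, chosen for its lower value, was among those lower each time.

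**Figure D2:**
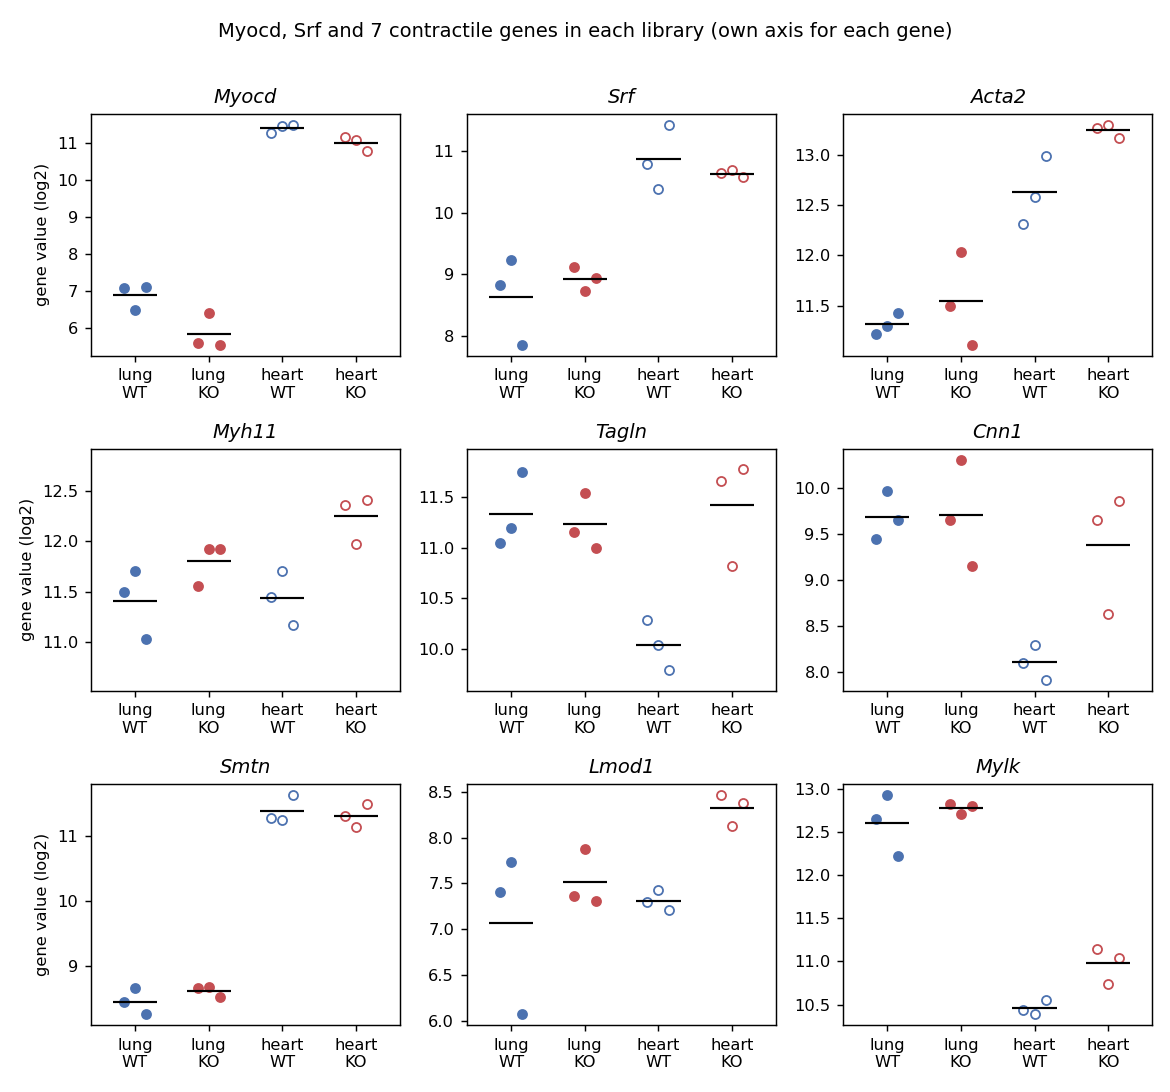
The deposited log2 value of each member in each of the 12 libraries (filled points, lung; open points, heart; blue, WT; red, KO; bar, mean of 3), each gene on its own axis. Lung groups overlap for every gene but Myocd, and KO hearts lie above WT hearts for Acta2, Myh11, Tagln, Cnn1, Lmod1 and Mylk and below them for Myocd.

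Among 22 other contractile and cytoskeletal genes of smooth muscle, 11 were lower in KO lungs and the median difference was 0.01. The libraries did not overlap for 4 of the 22, with Vcl (vinculin, 0.20) and Itga8 (an integrin subunit, 0.09) higher and Tpm1 (a tropomyosin, −0.54) and Synm (synemin, an intermediate filament protein, −0.53) lower in KO. Over all lung genes, 6.41% were higher and 6.4% lower in KO without overlap. The largest difference was that of Kcnmb1, a channel subunit of smooth muscle, at 0.59, with overlapping libraries. Chrm3, the muscarinic receptor through which acetylcholine contracts airway smooth muscle, was at 4.84, 5.62 and 5.59 in WT lungs and 6.76, 6.54 and 6.35 in KO lungs. It stood above WT in every KO lung, and so did Lgr6, by 0.51, in the same list of 6 markers of airway smooth muscle and myofibroblasts, whose summed level was 10.81 to 10.996 in WT and 11.001 to 11.50 in KO lungs.

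Levels of marker lists of other cell types in the same lungs are given beside these values. Of 11 tested heart muscle markers, 10 had a lower mean in KO lungs, beside 48.4% of all genes, with a median difference of −0.66. All of these markers had overlapping libraries. Their summed level was 14.34 to 15.09 in WT and 13.87 to 14.38 in KO lungs, which overlapped. Myh6, a heart myosin heavy chain, was at 13.36, 13.20 and 14.24 in WT and 13.25, 12.46 and 12.58 in KO lungs. All 4 skeletal muscle markers tested were lower in KO, and the summed level of that list was 9.31 to 11.95 in WT and 8.11 to 9.03 in KO lungs, with 2 of its 8 genes at 0 in every KO lung. The pericyte list had a summed level of 12.70 to 12.79 in WT and 12.84 to 13.03 in KO lungs, with 4 of 7 genes higher without overlap, among them Rgs5 (0.72) and Notch3 (0.44), beside 6.41% of all genes, and the other 3 (Pdgfrb, Kcnj8 and Higd1b) below 0 with overlapping libraries. The large airway and cartilage list had a summed level of 17.40 to 18.18 in WT and 18.21 to 18.49 in KO lungs, the lung epithelium list 18.17 to 18.33 and 17.68 to 17.99, and the fibroblast list 14.41 to 14.85 and 14.59 to 15.00. The part of these differences in the values of the members was not tested.

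Across the 6 lung libraries, the deposited value of Myocd ran with none of the other members closely. Its Pearson correlation was 0.50 with Tagln, 0.24 with Cnn1 and 0.06 with Acta2, and it was −0.37 with Lmod1 and between −0.60 and −0.64 with Srf, Smtn, Myh11 and Mylk. The genes with the most similar pattern among 12336 protein-coding candidates were Aldh1l1 (0.985), Gsdmd (0.978), Rnf25 (0.969), Krt19 (0.968) and Brms1 (0.968), and the most opposite were Pkd1 (−0.995) and Nfatc3 (−0.982). The mean of the 7 contractile members was most like Caskin2 (0.992), Atp7b (0.987), Tnfrsf21 (0.986), Stim1 (0.986) and Scnn1b (0.985). These are descriptions over 6 libraries that share the genotype groups and the scaling between libraries. They rest on the deposited values. In the plain sum of its transcripts Myocd overlapped between the genotypes, with a difference of 0.074, and correlations with that sum were not computed. Among themselves, the 7 contractile members had a median correlation of 0.37 over 21 pairs in the lung and 0.80 in the heart, over 6 libraries each.

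In the heart, 6 of the 7 contractile members were higher in every KO than in every WT library, and Myocd was lower. Over all 15303 genes tested in the heart, 7.82% were higher in KO without overlap and 5.23% lower. None of the 9 members passed the thresholds in limma with Benjamini-Hochberg adjustment over all genes, which 0.085% of genes (13) did. An unadjusted p under 0.05 was reached by 7 of the 9 members, beside 7.46% of all genes, and 6 of these 7 were higher in KO. Limma-voom also called none. Genes known to be regulated together are not independent, and the counts are read with that in mind.

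Tagln differed most, at 10.29, 10.04 and 9.79 in WT hearts and 11.66, 10.82 and 11.78 in KO hearts. All KO hearts lay above all WT hearts, and KO replicate 2 was the lowest of the KO hearts. The difference was 1.38 (standard error 0.25, 95% interval 0.82 to 1.95), or 2.61-fold, with an adjusted p of 0.194 from limma. Cnn1 was also lowest in KO replicate 2 among the KO hearts, at 8.10, 8.29 and 7.91 in WT and 9.65, 8.63 and 9.85 in KO hearts, a difference of 1.28 (standard error 0.29, adjusted p = 0.378 from limma). Without KO replicate 2, Tagln (difference 1.68, adjusted p = 0.0109) and Cnn1 (1.65, adjusted p = 0.0136) passed the thresholds, so the calls turned on that library. Over all alternatives the adjusted p ranged from 0.0109 to 0.75 for Tagln and from 0.0136 to 0.994 for Cnn1.

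Lmod1 had the smallest adjusted p of the members, 0.132 (0.0743 to 0.628 over the alternatives). It was at 7.30, 7.43 and 7.21 in WT hearts and 8.47, 8.13 and 8.37 in KO hearts, a difference of 1.01 (standard error 0.17, 2.02-fold). All KO hearts lay above all WT hearts. Myh11 was at 11.44, 11.70 and 11.17 in WT and 12.36, 11.97 and 12.41 in KO hearts, a difference of 0.81 (standard error 0.18, adjusted p = 0.315 from limma). Acta2, the most abundant member in the heart per length, was at 12.31, 12.58 and 12.98 in WT and 13.26, 13.30 and 13.17 in KO hearts, a difference of 0.62 (standard error 0.17). Mylk was at 10.43, 10.39 and 10.55 in WT and 11.15, 10.74 and 11.04 in KO hearts, a difference of 0.52 (standard error 0.14). KO replicate 2 was the lowest KO heart for each of Myh11, Tagln, Cnn1, Lmod1 and Mylk.

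Smtn, Srf and Myocd did not follow them. Smtn was at 11.27, 11.24 and 11.63 in WT and 11.30, 11.13 and 11.48 in KO hearts, a difference of −0.08 with a 95% interval from −0.42 to 0.27. Srf was at 10.79, 10.39 and 11.43 in WT and 10.64, 10.70 and 10.58 in KO hearts, with a WT spread that covered all KO hearts. Myocd was at 11.27, 11.47 and 11.50 in WT and 11.17, 11.10 and 10.80 in KO hearts. Each KO heart was below each WT heart, and the difference was −0.39 (standard error 0.14, adjusted p = 0.609 from limma, 0.499 to 0.999 over the alternatives). Its main transcript Myocd-203 differed by −0.57 (adjusted p = 0.816 over 32015 transcripts). Thus the mean deposited value of Myocd was lower in KO in each tissue, while the 7 contractile members overlapped in the lung and 6 of them, all but Smtn, lay above the WT libraries in the heart without passing the thresholds. Whether the genotypes differed more in 1 tissue was not tested, because the lung values chose the genes.

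Of the 22 other contractile and cytoskeletal genes, 5 were higher in every KO heart (Tpm2, a tropomyosin, by 1.04, Itga8 by 0.98, Kcnmb1 by 0.87, Flna, the actin crosslinker filamin A, by 0.52 and Synm by 0.31) and none was lower without overlap. Their median difference was 0.20, against 0.03 over all genes, and none passed the thresholds. An unadjusted p under 0.05 from limma was reached by 6 of the 22, 5 of them higher in KO, beside 7.46% of all genes. Over all heart genes, 7.82% were higher and 5.23% lower in KO without overlap. Tpm2 was at 9.56, 9.30 and 9.11 in WT and 10.52, 9.80 and 10.77 in KO hearts, and Itga8 at 9.88, 10.38 and 9.61 in WT and 11.18, 10.52 and 11.12 in KO hearts. KO replicate 2 was the lowest KO heart for Tpm2, Itga8 and Flna, and KO replicate 3 for Kcnmb1 and Synm. Nexn, a gene shared with heart muscle, differed by −0.69 with overlapping libraries. Of the 14 SRF cofactors and antagonists, Csrp1, a LIM protein of smooth muscle, was higher in every KO heart (0.70, adjusted p = 0.378 from limma). Elk3, a repressor that binds with SRF, was lower (−0.23), and the median of the list was −0.04. These 2 of 14 stand beside the 7.82% and 5.23% of all genes that were higher and lower without overlap.

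Marker lists of other cell types in the hearts are given beside these results. Of the 7 pericyte markers none was higher in KO without overlap and Abcc9 was lower (−0.11), and their summed level was 15.15 to 15.21 in WT and 15.05 to 15.23 in KO hearts. The fibroblast list was at 14.92 to 15.23 in WT and 15.05 to 15.27 in KO hearts, the heart muscle list at 20.91 to 21.14 and 20.96 to 21.15, and the lung epithelium list at 12.54 to 12.94 and 12.71 to 13.04. The airway smooth muscle list was at 12.54 to 13.27 and 12.81 to 12.999, and the skeletal muscle list at 15.58 to 16.43 and 16.07 to 16.43. The atrial peptide gene Nppa was at 15.35, 15.40 and 14.03 in WT and 16.32, 15.72 and 15.96 in KO hearts. The large airway and cartilage list was at 6.72 to 8.79 in WT and 8.33 to 11.14 in KO hearts, with 1 of its 8 genes at 0 in every WT heart, and Acan, a cartilage proteoglycan that large vessels and valves also make, was at 3.67, 4.197 and 3.95 in WT and 5.92, 7.59 and 5.62 in KO hearts. Acan was highest in KO replicate 2, the heart with the lowest KO values of Tagln and Cnn1. WT hearts 2 and 3 had 20381284 and 18392292 estimated counts and a library constant of 0.79 and 0.80, while WT heart 1 (33906290) and the KO hearts (31784742 to 35862932) had constants of −0.07 to −0.11. WT heart 1 lay below the KO hearts for each of the 6 contractile genes. The part of these differences, and of how much great vessel each heart sample held, in the higher contractile genes was not tested.

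**Figure D3:**
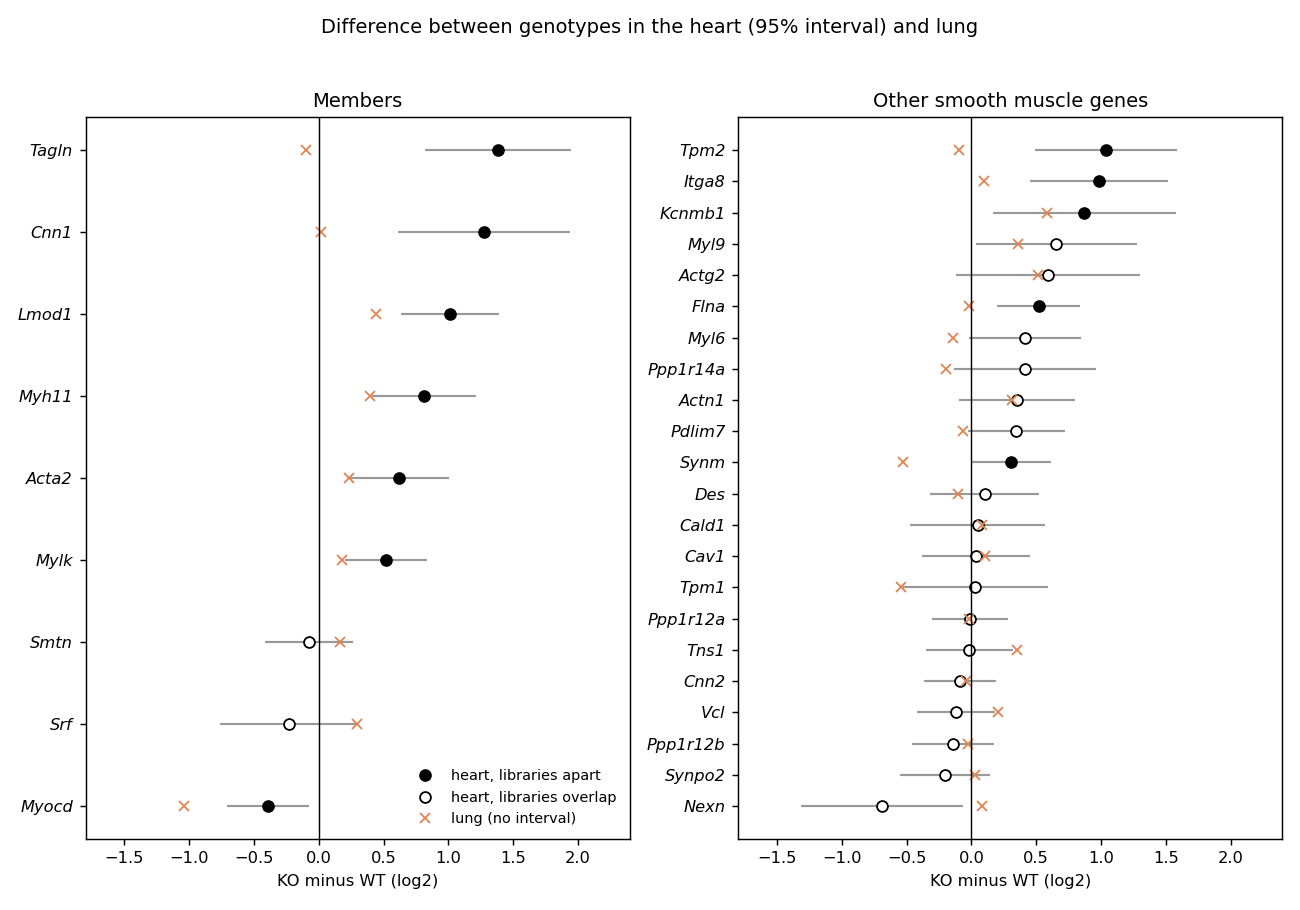
Difference of KO minus WT in log2 units for the members (left) and 22 other smooth muscle genes (right), in the heart with its 95% interval (filled, all KO hearts on one side of all WT hearts; open, overlapping) and in the lung (crosses, no interval). In the heart 6 contractile members lie between 0.52 and 1.38, and in the lung Myocd lies at −1.04 with the contractile members between −0.10 and 0.44.

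Between tissues, the members differed in both directions. In WT mice, 4 members were called lower in lung than in heart (Myocd, Smtn, Srf and Acta2) and 3 higher (Mylk, Cnn1 and Tagln), where 20.5% and 29.7% of all 16636 genes were called lower and higher. Myocd differed most, at 6.88 ± 0.35 (SD, n = 3) in lung and 11.41 ± 0.13 (SD, n = 3) in heart, a difference of −4.54 (standard error 0.21, adjusted p = 9.82e-07 from limma). Smtn differed by −2.92, Srf by −2.23 and Acta2 by −1.31, and Mylk by 2.15, Cnn1 by 1.58 and Tagln by 1.29, and in each of these the lungs and hearts did not overlap. Myh11 (−0.03, 95% interval −0.54 to 0.48) and Lmod1 (−0.24, −1.20 to 0.71) were not called.

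In KO mice, 5 members were called lower in lung (Myocd by −5.19, Smtn by −2.68, Srf by −1.70, Acta2 by −1.69 and Lmod1 by −0.81) and only Mylk was called higher (1.80), where 22.3% and 30.9% of 16802 genes were lower and higher. Tagln, at 11.23 ± 0.28 (SD, n = 3) in lung and 11.42 ± 0.52 (SD, n = 3) in heart, and Cnn1, at 9.70 ± 0.58 and 9.38 ± 0.66, were not called in KO mice, with intervals of −0.78 to 0.40 and −0.53 to 1.17 for lung minus heart. Myh11 differed by −0.45 (adjusted p = 0.0325 from limma), a fold under 1.5. For Myocd the deposited values differed more in KO (−5.19) than in WT mice (−4.54). In plain sums of its transcripts it differed by −4.777 in KO and −5.425 in WT, the other order, and was called lower in lung in each. Whether the tissue differences changed with genotype was not tested. The WT hearts enter both the genotype comparison in the heart and the tissue comparison in WT mice, so these are not independent. Centring the libraries or quantile normalization moved the median of all genes from 0.30 to 0.11 and 0.06 in WT and from 0.28 to 0.13 and 0.08 in KO, and the 4 lower and 3 higher calls of WT mice were made under each.

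Compared per length, as scaled estimated counts per kilobase over transcripts of at least 400 bases, the members took another order in each tissue. In WT lungs Tagln (1362 ± 158), Mylk (1189 ± 344) and Acta2 (1101 ± 78) led and their libraries overlapped from each to the next. Myh11 (432 ± 104) and Cnn1 (412 ± 26) came next and overlapped each other, then Smtn (141 ± 29) and Srf (125 ± 50), which also overlapped, and Lmod1 (36.5 ± 18.3). Myocd was lowest, at 12.2 ± 1.5 in WT and 13.9 ± 0.68 in KO lungs (SD, n = 3 for each value). In WT hearts Acta2 (2796 ± 695) and Smtn (1053 ± 175) led, each apart from the next, and Myocd (592 ± 101) lay between Tagln (704 ± 121) and Myh11 (442 ± 82), overlapping both. Lmod1 was lowest, at 38.6 ± 3.0 in WT and 78.6 ± 9.3 in KO hearts. In KO hearts Tagln (1607 ± 414) passed Smtn (1003 ± 116) to stand next to Acta2 (4214 ± 160).

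Tissues also differed in which transcripts of a member they held. Of the 43 member transcripts, 27 were tested between WT lung and heart and 6 were called higher and 7 lower in lung, where 15.5% and 13.5% of all 35553 transcripts were. In KO mice 4 of 28 were called higher and 10 lower, beside 20.2% and 17% of 36424. Between the genotypes in the heart, limma called none of 26, where 0.0625% of 32015 transcripts were called, and 10 of the 26 had an unadjusted p under 0.05, beside 5.72% of all transcripts.

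Smtn differed in form between the tissues. The gene is known to make a long protein, mainly in vascular smooth muscle, and a short protein from an internal start. The short transcript Smtn-201 (1747 bases, 446 codons), whose first exon of 510 bases lies at chr11:3477428-3477937 within the long gene, held 58.8% ± 5.1 (SD, n = 3) of Smtn counts in WT hearts and 4.82% ± 2.2 (SD, n = 3) in WT lungs. Its value was 10.29 in WT hearts and 4.12 in WT lungs, a difference of −6.17 (standard error 0.25, adjusted p = 6.30e-05 from limma). The long Smtn-202 (3346 bases, 921 codons) held 71.6% ± 10.8 of the counts in WT lungs and 15.6% ± 5.5 in WT hearts, and its value was not called between the tissues (−0.30, adjusted p = 0.69 from limma). Smtn-203, with 22.8% of counts in WT hearts, was called lower in WT lung like Smtn-201 (−2.92, adjusted p = 0.00604 from limma). In the lung, Smtn-203 held 11.6% to 22.4% of Smtn counts in WT and 26.0% to 34.9% in KO mice, which did not overlap. Its own values did overlap, at 5.65, 6.86 and 5.23 in WT and 7.52, 7.45 and 6.85 in KO lungs. How often such shares lie apart over all transcripts was not computed, and nothing is read from it.

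Most Mylk counts were assigned to its longest transcript Mylk-201 (7824 bases, 1950 codons), with 89.2% ± 1.2 in WT lungs and 73.0% ± 6.7 in WT hearts (SD, n = 3). The only other coding form in the annotation, Mylk-203, has 159 codons. The share therefore cannot tell Mylk-201 from a coding form that is not annotated. Mylk-207, a form with a retained intron and no coding region, held 15.9% ± 5.3 of Mylk counts in WT hearts and 1.89% ± 1.4 in WT lungs. The difference between lung and heart was larger for Mylk-201 alone (2.65 in WT, adjusted p = 0.000487 from limma, and 2.34 in KO, adjusted p = 2.39e-05) than for the gene. The gene differed by 2.15 in WT and 1.80 in KO as deposited. In plain sums of its transcripts it differed by 2.36 and 2.04, closer to Mylk-201.

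Myh11 is known to make 4 myosins through a short exon in the head and another near the tail. The form ENSMUST00000231567.2 differs from the main form ENSMUST00000090287.5 by its exon 6, 21 bases at chr16:14066444-14066464 on the minus strand, which adds 7 residues to the motor head and is shown here as the whole difference between them.

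Myh11 head exon: caaggtccatcttttgcctac

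The form with the head exon held 20.6% ± 8.6 of Myh11 counts in WT lungs and 14.4% ± 2.2 in WT hearts (SD, n = 3), with overlapping libraries. In KO hearts it held 8.48% ± 3.1, below every WT heart, with no share over all transcripts computed to set beside it. Its own value differed by −0.02 between KO and WT hearts (adjusted p = 0.988), the main form by 0.97 (adjusted p = 0.557), and ENSMUST00000230397.2, with a 39-base exon near the tail, by 0.73 (adjusted p = 0.816, all from limma over transcripts). Salmon divides reads among such transcripts by estimation, and shares of near-identical forms rest on the few reads that cross the exon that differs.

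**Figure D4:**
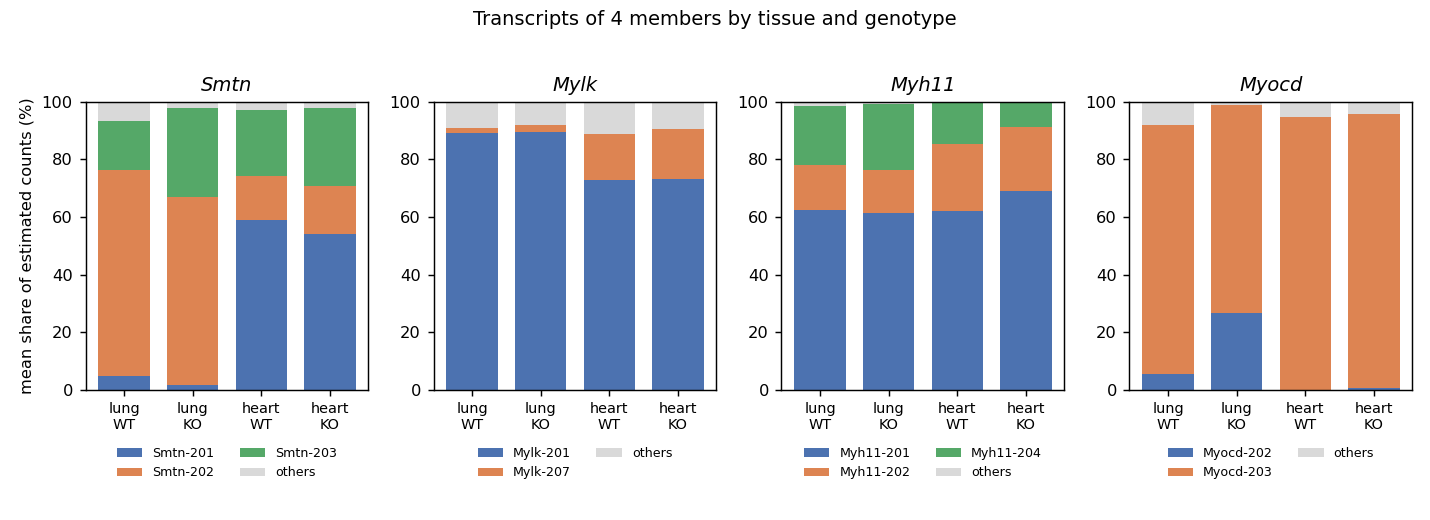
Mean share of the estimated counts of Smtn, Mylk, Myh11 and Myocd held by each transcript with at least 10% in some group, in lung and heart of WT and KO mice (3 libraries each; grey, all other transcripts; for Myh11, green is the form with the head exon, blue the main form and orange the form with the tail exon). Smtn-201 holds 58.8% in WT hearts and 4.82% in WT lungs, and the Myocd-202 share of KO lungs comes from replicate 2 alone.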

How the data were processed

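RNA from 12 libraries (stranded total RNA, lung and heart of 3 WT and 3 KO mice) was processed by the authors with cutadapt, STAR, Salmon and limma (3.42.2 per the labels) against mm39 and GENCODE release 33. The authors deposited log2 values per gene and per transcript. Transcript values are log2(1 + estimated count). Gene values of genes with 1 transcript were compared with the transcript value where that was at least 9. There they equal it plus a constant for each library, for at least 95.7% of them within 0.01. The constant was also applied to lower values, which this share does not cover. The step from transcripts to genes and the scaling are not given in the sources used here.

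The deposited gene values were compared with limma 3.58.1 in R 4.3.3 (lmFit, eBayes with trend), with Benjamini-Hochberg adjustment over all genes with a value of at least 3.46, log2(1 + 10), in at least 3 libraries. The thresholds were an adjusted p under 0.05, a fold of 1.5 or more, and 6 or more for the larger group mean. Differences are on the log2 scale and understate changes of low genes. Transcripts were put on the gene scale with each library's constant. Length-weighted sums used annotated lengths less 200 bases. Gene models, sequences and promoters came from GENCODE release 39 on GRCm39, the same assembly, with 99.0% of genes matched, and copies were searched with blastn 2.17.0 (95% identity over 500 bases). The lung and heart of a mouse pair by the mouse identifier in the labels. Correlations of their deviations from group means were 0.05, 0.14 and −0.03 in WT and 0.02, −0.06 and −0.03 in KO mice (17566 genes). Named genes are the members, up to 3 genes of each list with the largest difference, genes counted as not overlapping where few, the genes most like Myocd or the contractile mean in the lung, and transcripts with at least 10% of their gene's counts. Myh6 and WT replicate 3 of the lung were singled out after their values were seen. Comparisons share libraries, since each group enters a genotype and a tissue comparison. The members and lists were chosen with earlier results of these data known. The alternatives (filters, centring, quantile normalization, summed transcripts, limma-voom, no trend, all 12 libraries in 1 model, each library left out, the mouse as a block) are given at the end.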

Additional observations from a re-analysis of the deposited data

How the results depend on the processing

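Of 581 values computed under the alternatives, 554 kept their direction and their side of the threshold or stayed within the replicate spread. With the plain sum of transcripts the difference of Myocd between KO and WT lungs turned from −1.04 to 0.074, and 0 of 9 members were lower in KO. Without Myocd-205 it was 0.18 in the length-weighted sum and 0.18 in the plain sum, in which 0 of 9 members were lower. These settings were chosen after seeing the data. With each library left out, the Myocd difference in the lung ranged from −1.32 to −0.89. The number of members lower in KO lungs, with Myocd always among them, ranged from 1 to 5. The number called higher in KO hearts ranged from 0 to 2 (Tagln and Cnn1 without heart KO replicate 2). In the heart, Srf turned to 0.048 and Smtn to 0.049 without WT replicate 3, and Smtn to 0.011 without KO replicate 2, within ranges of −0.47 to 0.048 for Srf and −0.16 to 0.049 for Smtn with each library left out. For lung minus heart in WT, Myh11 turned to 0.18 with quantile normalization. With each library left out, Myh11 ranged from −0.18 to 0.16 (0.10 without heart WT replicate 2, 0.16 without lung WT replicate 3) and Lmod1 from −0.57 to 0.26 (without lung WT replicate 3). In KO, Cnn1 turned to −0.053 without heart KO replicate 2, within a range of −0.053 to 0.60, Myh11 was called lower in lung with centred libraries (−0.59) and without heart KO replicate 2 (−0.59), and Lmod1 (−0.81) was not called with all 12 libraries in 1 model. Without the constant of each library, 4 member transcripts in place of 7 were called lower in WT lung and 5 in place of 10 in KO lung, and with each library left out the latter number ranged from 5 to 9. With the mouse as a replicate block, all 26 tissue values kept their call, among them Myocd in WT at −4.54. The causes of these changes were not tested.

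Depth limits the values of Myocd in the lung, which had 49.4 to 117 estimated counts in a lung library and Myocd-205 at most 7.68, so a few counts of that transcript move the length-weighted sum.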
